A study of Drosophila melanogaster with 2 samples.

Results

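The glutathione S-transferases (GSTs) and UDP-glycosyltransferases (UGTs) of Drosophila melanogaster are described here across 72 probes, out of 15744 on the array, which represent 70 of the 12236 genes named by a single symbol. The members are every probe whose single current gene symbol starts with GstD, GstE, GstO, GstS, GstT, GstZ or Ugt. This rule uses no measured value, but the members were chosen with earlier results of these data known. They comprise 37 probes for 35 Gst genes and 35 probes for 35 Ugt genes. Of the 70 protein-coding genes that carry such a symbol in the Release 6 plus ISO1 MT gene table, 70 had a probe.

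PolyA RNA of larvae was compared on 2 two-colour arrays. The larvae of interest came from a cross of GMR to GFP-dASF/SF2, in which the SR splicing protein dASF/SF2 is fused to GFP. The control larvae came from a cross of GMR to GFP-NLS, in which GFP carries a nuclear localisation signal, so both crosses carry GMR and a GFP construct. GMR is an enhancer of the developing eye, and the labels used here give neither the age of the larvae nor the part of the larva from which RNA was taken. The dASF/SF2 RNA carried Cy5 on array 1 and Cy3 on array 2. The study asked whether raising dASF/SF2 alters gene expression broadly. Whether the arrays used separate RNA extracts is not given, so the p-values below measure only the spread between 2 arrays, which may be technical, and the number of arrays limits the precision.

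Each value is the deposited log ratio of the channels, with array 2 turned in sign to run the same way as array 1 and each array centred on its median. Neither the base of the logarithm nor the numerator of the ratio is given in the sources used here. The labels name GFP-dASF/SF2 as the source of channel 2 on both arrays, although the dyes were swapped. Whether the deposited values already run by genotype is not known, and that reading is given as an alternative. A value is therefore said to lie on the positive or the negative side, and the positive side means more RNA in dASF/SF2 larvae only where Cy5 was divided by Cy3. Where a fold is printed, it is worked out for base 2 and again for base 10. In RNA of many tissues, fewer cells of a type and less RNA per cell cannot be told apart.

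GSTs join the tripeptide glutathione to reactive, electrophilic compounds and so make them more soluble. UGTs transfer a sugar, in insects mostly glucose, from a UDP-sugar onto small lipophilic molecules such as plant compounds, pigments and hormones. Both belong to the conjugating step of detoxification, between oxidation by cytochromes P450 and export by transporters. In insect larvae these enzymes are known from the midgut, the fat body and the Malpighian tubules. The delta (GstD) and epsilon (GstE) classes have expanded in insects and lie in gene clusters, while the omega, sigma, theta and zeta classes are shared more widely among animals.

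Coverage differed between the families. Of the 37 Gst probes, 34 (91.9%) had a value on both arrays, against 15 of 35 Ugt probes (42.9%) and 10912 of 14784 probes (73.8%) of the whole array without its unnamed repeated features. A value on array 2 alone was present for 3 Gst probes, 12 Ugt probes (34.3%) and 2582 probes of the array (17.5%). A value on array 1 alone was present for 1 Ugt probe, and 7 Ugt probes had no value on either array. Those 7 were Ugt302E1, Ugt303B2, Ugt35D1, Ugt35E1, Ugt36E1, Ugt37A3 and Ugt37B1. No source used here names the filter behind the blank cells, so a blank cell is not read as an absent transcript. Statements on the UGTs as a family rest on these 15 probes unless array 2 alone is named.

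As a whole, the conjugating enzymes lay close to the centre of the arrays. The 34 Gst probes measured on both arrays had a median of -0.0057 and the 15 Ugt probes a median of 0.017, against 0.0045 over all 10912 probes. On array 1 and array 2 in turn, the Gst medians were -0.0195 and -0.02, the Ugt medians 0.08 and -0.066, and the medians of all probes 0.001 and 0.009. The UGT median thus changed sides between the arrays. Means within 0.1 of the centre were found for 22 Gst probes (64.7%), 9 of 15 Ugt probes and 61.2% of all probes.

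limma, fitted over the whole table with Benjamini-Hochberg adjustment and a threshold of 0.05, called 0 of the 49 member probes, and the share called over all probes was 0.00%. The adjusted p of the members ran from 0.54 to 0.999. At an unadjusted p under 0.05 there was 1 member on the positive side, Ugt301D1, where 4.76% of all probes passed in that direction, and there were 0 on the negative side, where 1.93% of all probes passed. The SF2 probe itself had -0.031 on array 1 and -0.128 on array 2 (adjusted p = 0.999), and whether it reads the transgene is not known.

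Many members changed side between the arrays. Positive values on both arrays were found for 10 of the 49 members (20.4%; 26.1% of all probes), negative values on both for 12 (24.5%; 23.1% of all probes) and opposite sides for 27 (55.1%; 50.9% of all probes). These shares are near those of the whole array. If the deposited values already run by genotype, so that array 2 is not turned, the counts were 18 positive on both arrays (36.7%; 23.9% of all probes) and 9 negative on both (26.4% of all probes), and the 18 comprised 11 Gst and 7 Ugt probes. Read as log2, 0 members passed 1.5-fold on both arrays on one side, where 0.119% of all probes did so on the positive and 0.0825% on the negative side. Read as log10, 1 member passed on the positive side, Ugt301D1 (5.25% of all probes), and 1 on the negative side, Ugt302K1 (2.18% of all probes).

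**Figure D1:**
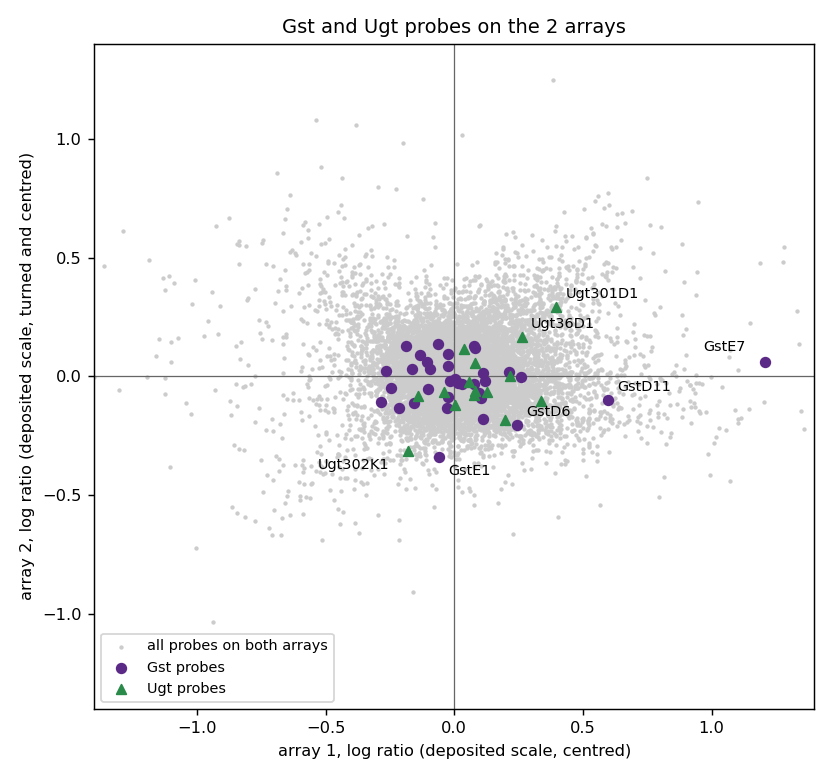
Log ratio of each probe on array 1 (x axis) against array 2 after turning (y axis), both on the deposited scale and centred; grey dots are all probes measured on both arrays, circles the 34 Gst probes and triangles the 15 Ugt probes. The axes end at 1.4 and leave out 21 grey dots; most members lie near the centre, GstE7 and GstD11 stand out along array 1 alone, and Ugt301D1 stands out on both arrays.

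The delta class held 9 probes with both values and 2 with a value on array 2 alone. Its median was 0.0085, with means from -0.1745 to 0.2485, and 1 probe was positive on both arrays, 3 negative on both and 5 on opposite sides. GstD1 (CG10045), an enzyme known for turning over the insecticide DDT, had 0.014 on array 1 and -0.026 on array 2. Its mean was -0.006 ± 0.0283 (SD, n = 2), with a limma 95% interval of -0.247 to 0.235. GstD1 therefore lay at the centre of both arrays.

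GstD3 (CG4381) had the lowest mean of the class, from -0.216 on array 1 and -0.133 on array 2 (mean -0.1745 ± 0.0587, limma adjusted p = 0.897). Also negative on both arrays were GstD10 (CG18548, -0.029 and -0.134, mean -0.0815) and GstD4 (CG11512, -0.10 and -0.055, mean -0.0775). Without turning array 2, the mean was -0.0415 for GstD3 and 0.0525 for GstD10. GstD9 (CG10091) was the single delta probe positive on both arrays, with 0.113 and 0.014. GstD11 (CG17639) had the highest mean of the class, 0.2485 ± 0.493, which rested on array 1, with 0.597 there against -0.10 on array 2. GstD6 (CG4423) split in the same manner, with 0.245 on array 1 and -0.203 on array 2. GstD5 had a mean of 0.0085 and GstD8 of 0.012, each with the arrays on opposite sides. On array 2 alone, GstD2 had 0.036 and GstD7 had -0.056, and dye and genotype cannot be told apart in them.

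All 14 probes of the epsilon class had both values, with a median of -0.0087. Only 2 were on the positive side of both arrays (14.3%) and 2 on the negative side of both, while 10 (71.4%) lay on opposite sides. GstE7 (CG17531) had the highest mean of any member, 0.6335 ± 0.81, with 1.206 on array 1 and 0.061 on array 2. The value on array 1 was the highest of any member on either array, and the 95% interval of the mean, -0.0351 to 1.30, included 0 (limma adjusted p = 0.775). Without array 1 the value of GstE7 was 0.061, and its mean of 1.55-fold on base 2 or 4.30-fold on base 10 thus depends on a single array.

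GstE1 (CG5164) had the lowest mean of the class, -0.20 ± 0.199, with -0.059 on array 1 and -0.341 on array 2 (adjusted p = 0.906). Without turning array 2 its mean was 0.141, on the other side. GstE8 (CG17533) was the other probe negative on both arrays, and its values of -0.016 and -0.021 were nearly at the centre. GstE9 (CG17534) was positive on both, with 0.212 and 0.019. GstE5 had 0.26 and -0.002 (mean 0.129), GstE4 had -0.265 and 0.024 (mean -0.1205), and GstE6 had 0.113 and -0.181 (mean -0.034). In GstE5 and GstE4 array 1 carried nearly all of the value, and in GstE6 the arrays opposed each other.

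GstE14 (CG4688, also called Noppera-bo) differs from its class in being required for synthesis of the moulting hormone ecdysone, through handling of cholesterol in the prothoracic gland. It had -0.186 on array 1 and 0.13 on array 2, a mean of -0.028 ± 0.223. The remaining epsilon probes had means near the centre, at -0.0315 for GstE2, -0.021 for GstE12, 0.001 for GstE11, 0.0055 for GstE10, 0.022 for GstE3 and 0.037 for GstE13, each with the arrays on opposite sides.

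The omega class, whose members act more as thiol transferases than as conjugating enzymes, had 4 probes for 3 genes and the narrowest range of means among the classes with more than 2 probes, from -0.055 to 0.034. GstO2 (CG6673) was covered by 2 probes, which gave -0.023 and -0.087 (mean -0.055) on one, and -0.104 and 0.059 (mean -0.0225) on the other. Both probe means of GstO2 were slightly negative, but the second probe had its arrays on opposite sides. GstO1 (CG6662) had -0.026 and 0.094 (mean 0.034), and GstO3 (CG6776) had 0.002 and -0.013 (mean -0.0055).

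GstS1 (CG8938), the only sigma enzyme of the fly, which is abundant in flight muscle and acts on products of lipid peroxidation, was on the positive side in its 3 values, those of array 2 after turning. One probe had 0.078 on array 1 and 0.127 on array 2 (mean 0.1025 ± 0.0346, limma adjusted p = 0.999), and the other had 0.123 on array 2 alone. No swapped value exists for the other probe, so dye and genotype cannot be told apart in it. Its value shares the RNA and dyes of array 2 with that of the first probe. The 95% interval of the first probe, -0.139 to 0.344, included 0, and without turning array 2 its mean was -0.0245. Muscle marker genes lay on the same side, with a median of 0.2825 over 5 probes for 5 of 10 genes, of which 4 were positive on both arrays; Tm2 had 0.382 and sls 0.007. Their part in the value of GstS1 was not tested.

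The theta class had the lowest median of the classes with more than 2 probes, -0.1003 over 4 probes. GstT4 (CG1681) had -0.283 and -0.106 (mean -0.1945 ± 0.125, adjusted p = 0.872), and GstT3 (CG1702) had -0.157 and -0.111 (mean -0.134 ± 0.0325, adjusted p = 0.961). Both were negative on both arrays, and both 95% intervals included 0, at -0.453 to 0.0642 for GstT4 and -0.375 to 0.107 for GstT3. Without turning array 2, the mean was -0.0885 for GstT4 and -0.023 for GstT3. GstT2 (CG30005), with -0.163 and 0.03, and GstT1 (CG30000), with 0.119 and -0.019, had their arrays on opposite sides. The class was not tested against other probes.

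The zeta enzymes catalyse a step of tyrosine breakdown, the isomerisation of maleylacetoacetate. GstZ1 (CG9362) was negative on both arrays, with -0.245 and -0.048 (mean -0.1465 ± 0.139), and GstZ2 (CG9363) was positive on both, with 0.081 and 0.121 (mean 0.101 ± 0.0283). These neighbouring genes lay on different sides, at adjusted p of 0.961 and 0.999, though without turning array 2 the mean of GstZ2 was -0.02, and the difference between them was not tested.

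**Figure D2:**
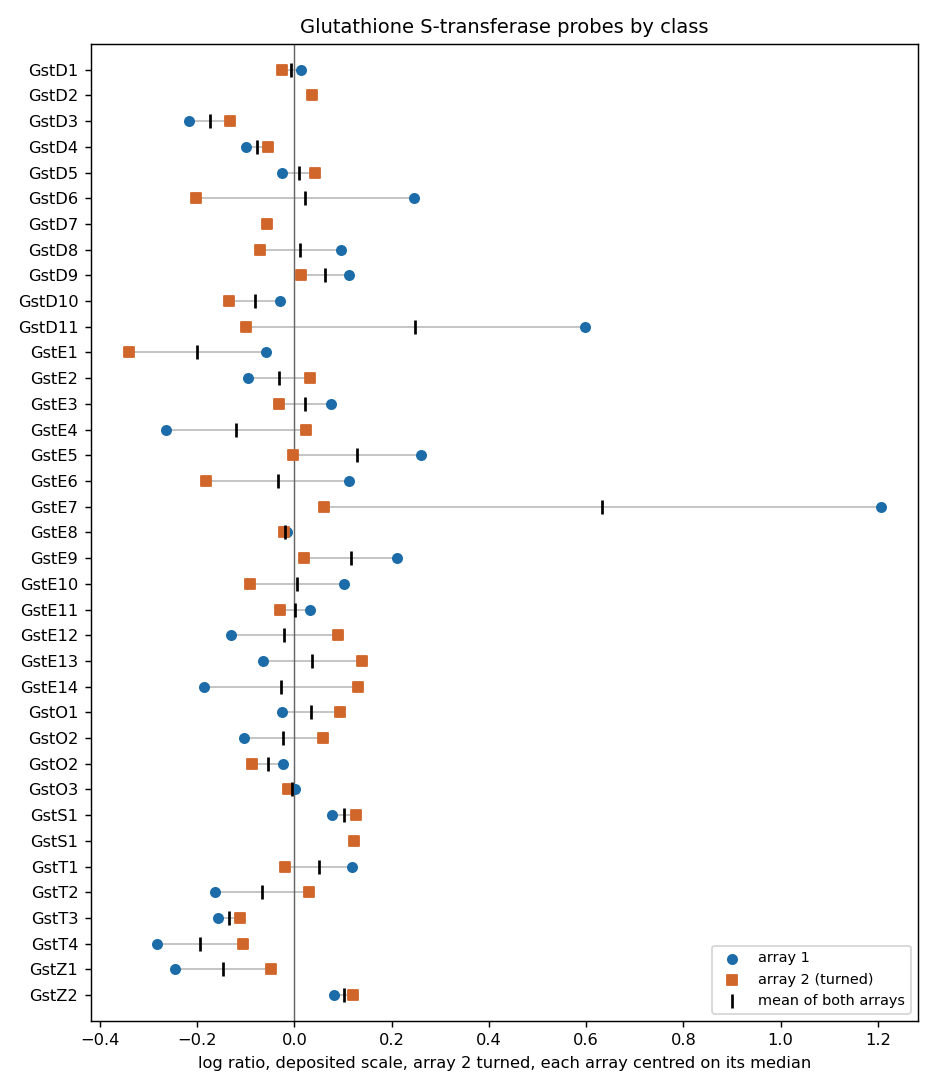
Log ratio (x axis, deposited scale, array 2 turned, each array centred) of every Gst probe, ordered by class down the page; circles are array 1, squares array 2 and upright bars the mean of both. The widest gaps between arrays belong to GstE7 (1.206 and 0.061) and GstD11 (0.597 and -0.10), whereas GstT3, GstT4, GstD3 and GstZ1 have both arrays left of 0.

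Among the UGTs, 15 probes had both values, with means from -0.2485 to 0.3455; 5 were positive in both, 3 were negative in both and 7 on opposite sides. In all 7 of the last group array 1 was the positive one. On array 1, 3 of the 15 values were negative, and on array 2, 10 of the 15. Across these 15 probes the turned arrays had a Pearson r of 0.592, against 0.027 across the 34 Gst probes and 0.0244 across all probes. If the deposited values already run by genotype, each r changes sign. These values are descriptions, since probes of a given array share its RNA and dyes.

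Ugt301D1 (CG10178) stood highest among the UGTs, with 0.397 on array 1 and 0.294 on array 2 (mean 0.3455 ± 0.0728). The size was 1.27-fold on base 2 (2.22-fold on base 10), and 96.8% of all probes had a lower mean. The limma 95% interval was 0.099 to 0.592 and left out 0, but it rests on variance shared over all probes. The value did not pass after adjustment over all probes (limma adjusted p = 0.54). Without turning array 2, its mean was 0.0515.

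Ugt36D1 (CG17323) followed on the positive side, with 0.262 and 0.164 (mean 0.213 ± 0.0693, limma adjusted p = 0.80). Its neighbour Ugt36F1 (CG17324) had 0.217 and 0.001 (mean 0.109). Without turning array 2, the mean was 0.049 for Ugt36D1 and 0.108 for Ugt36F1. Ugt303B1 (CG16732) had 0.04 and 0.115, and Ugt49C1 (CG15661) 0.08 and 0.056. These 4 probes were positive on both arrays, but array 2 of Ugt36F1 lay at the centre. Ugt304A1 (CG15902) had a similar mean of 0.117 with its arrays apart, at 0.338 and -0.104.

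Ugt302K1 (CG6658) had the lowest mean of all 49 members, with -0.181 on array 1 and -0.316 on array 2 (mean -0.2485 ± 0.0955). Without turning array 2, its mean was 0.0675, on the other side. The turned size was 1.19-fold on base 2 or 1.77-fold on base 10, and 2.80% of all probes had a lower mean. The 95% interval ran from -0.50 to 0.00252 (limma adjusted p = 0.747). Ugt37E1 (CG13271), with -0.14 and -0.082, and Ugt316A1 (CG3797), with -0.039 and -0.067, were the other UGT probes negative on both arrays. Ugt302C1 (CG18578), a neighbour of Ugt302K1, had 0.196 and -0.182, so its arrays cancelled to a mean of 0.007. The 5 remaining UGTs, Ugt307A1, Ugt36A1, Ugt37C2, Ugt37D1 and Ugt317A1, had means from -0.057 to 0.03 with opposite sides.

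The 12 UGTs with a value on array 2 alone lay mostly on the negative side. Their median was -0.1885, and 11 of 12 (91.7%) were negative, against 61.8% of the 2582 probes of the array with a value on array 2 alone, whose median was -0.057. Ugt37C1 had -0.437, Ugt35A1 -0.346, Ugt35B1 -0.318, Ugt35C1 -0.23 and Ugt35E2 -0.227. Ugt305A1 had -0.193, Ugt37A2 -0.184, Ugt303A1 -0.146, Ugt303B3 -0.136, Ugt50B3 -0.099 and Ugt49B1 -0.013, and Ugt37A1 was positive at 0.096. Each lay within the central 95% of probes measured on array 2 alone, -0.46 to 0.3655. Ugt49B2 had -0.209 on array 1 alone, where the median of 109 such probes was -0.253. No swapped value exists for these 13 probes, so dye and genotype cannot be told apart in them.

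**Figure D3:**
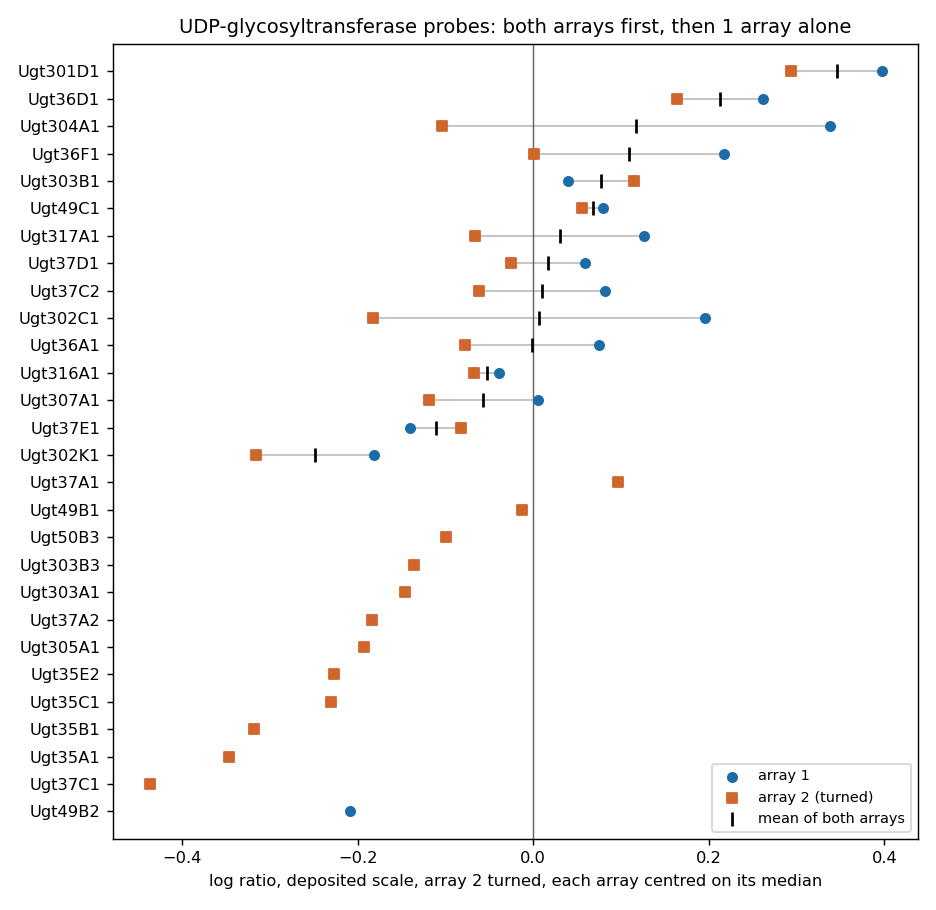
Log ratio (x axis, deposited scale, array 2 turned, each array centred) of each Ugt probe with a value; circles are array 1, squares array 2 and upright bars the mean of both, with the 15 probes measured on both arrays above the 13 measured on 1 array. Ugt301D1 and Ugt36D1 have both arrays well right of 0 and Ugt302K1 both left of 0, and 11 of the 12 probes on array 2 alone lie left of 0.

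Position in the genome was compared through the order of protein-coding genes in the reference table. Allowing at most 2 other genes between members, 51 of the 70 genes fell into 11 runs of neighbours. Probe sequences were not used here, so how far a probe reads a close paralog of its gene is not known.

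The delta genes formed a run of 11 and 10 of the epsilon genes a run of their own. In the delta run the highest mean, GstD11, lay at one end, and GstD3 and GstD4, neighbours in its middle, were negative on both arrays. In the epsilon run GstE7 lay between GstE6 (mean -0.034) and GstE8 (mean -0.0185), whose values on array 1 were 0.113 and -0.016. Neither run was on one side: both arrays were positive for 1 probe of the delta run and negative for 3, and the epsilon run had 2 probes of each kind.

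The longest run of UGTs, from Ugt35C1 to Ugt303A1, held 10 genes. On array 2 all 8 of its measured probes were negative, from -0.346 to -0.104, whereas on array 1 only 3 had values, of which 1 was negative. Of these 8 probes, 5 had a value on array 2 alone, a kind of which 61.8% were negative over the whole array; of probes measured on both arrays, 47.1% were negative on array 2. The run of Ugt36F1, Ugt36D1 and Ugt36E1 had both of its measured probes positive on both arrays. In the run of Ugt37C2, Ugt37E1 and Ugt37D1 all 3 values on array 2 were negative and 1 of 3 on array 1.

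**Figure D4:**
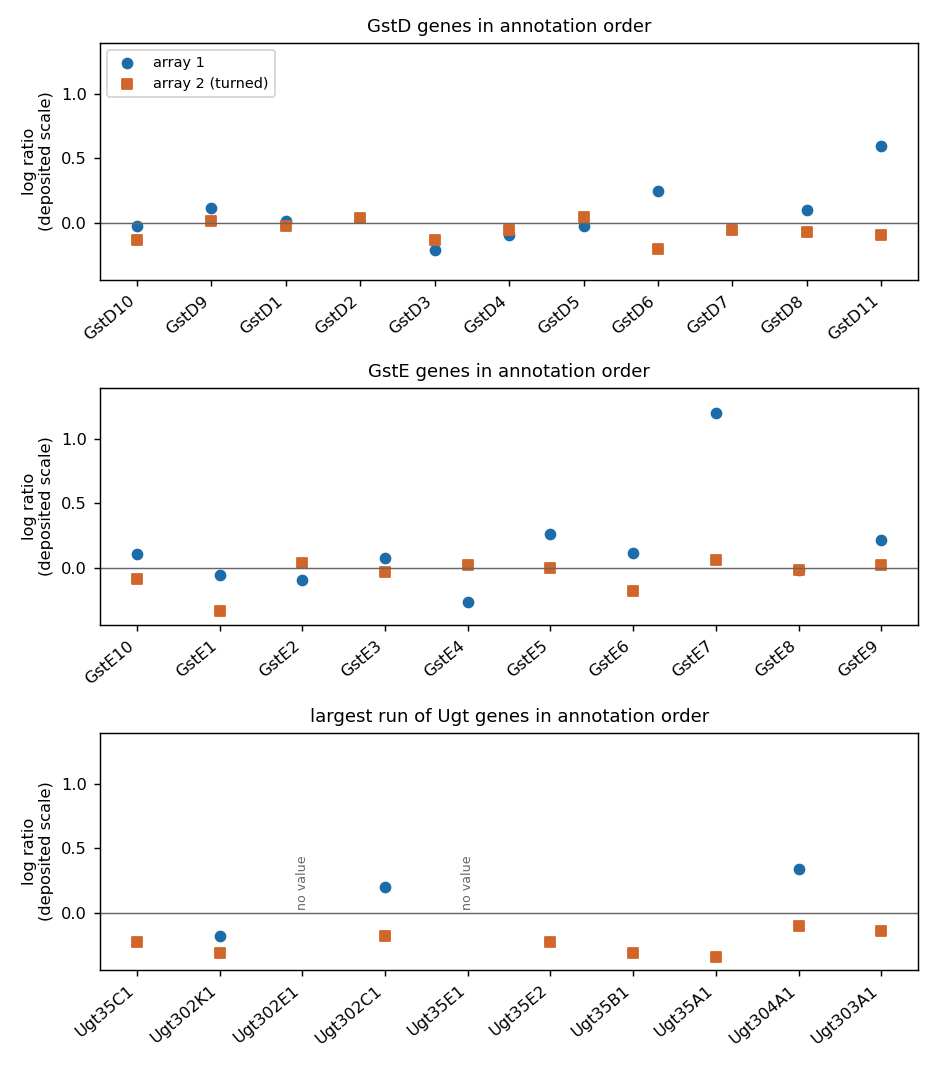
Log ratio (y axis, deposited scale, array 2 turned, each array centred) of neighbouring genes in their order in the reference table, without distances, for the delta run (top), the epsilon run (middle) and the longest UGT run (bottom); circles are array 1 and squares array 2. GstE7 (1.206) and GstD11 (0.597) stand out on array 1, and every square of the UGT run lies below 0.

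Genes that supply, regulate or accompany these enzymes were covered by 8 lists of 67 genes, of which 42 genes had 46 probes with both values. limma called 0 of the 46 after adjustment over all probes, and 6 had an unadjusted p under 0.05 (6.69% of all probes). Of these, 5 were on the positive side (4.76% of all probes) and 1 on the negative side (1.93% of all probes). The regulator gene cnc alone gave 2 of those on the positive side and the 1 on the negative side. Positive values on both arrays were found for 10 of the 46 (26.1% of all probes), negative values on both for 15 (23.1% of all probes) and opposite sides for 21 (50.9% of all probes).

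Glutathione supply, the making and recycling of glutathione and thiols, had a median of -0.0175 over 9 probes. Gclc, the catalytic subunit of the first enzyme of glutathione synthesis, was highest at 0.0375, and the glutathione synthetase gene Gss2 was lowest at -0.1175. UDP-sugar supply had a median of 0.056 over 4 probes, from -0.055 for the galactose enzyme Galt to 0.1015 for the phosphoglucomutase Pgm1. Neither cosubstrate list had a member at an unadjusted p under 0.05.

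Proteins related to GSTs under other names had a median of 0.066 over 5 probes. Clic, a chloride intracellular channel protein with a GST-like fold, had 0.231 and 0.301 (mean 0.266, limma adjusted p = 0.674), and the elongation factor subunit eEF1gamma was lowest at -0.0675. The sulfotransferase and juvenile hormone epoxide hydrolase list had only 2 measured probes, St2 at 0.0055 and Jheh2 at -0.094, with a median of -0.0442.

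Among regulators, the transcription factor gene cnc, whose long isoform CncC switches on GST genes under oxidative stress, had 4 probes, and the 3 with a value on both arrays did not lie on one side. One had -1.707 on array 1 and -0.252 on array 2 (mean -0.9795 ± 1.03, limma adjusted p = 0.63). The others had 0.624 and 0.309 (mean 0.4665, limma adjusted p = 0.477) and 0.595 and 0.438 (mean 0.5165, limma adjusted p = 0.422). The gene makes several isoforms, and which of them each probe reads is not stated in the annotation. Keap1, the inhibitor of CncC, had a mean of -0.052, its partner maf-S had -0.58 and 0.434 (mean -0.073), and the xenobiotic receptor Hr96 had -0.039. The median of the 6 regulator probes was -0.0455.

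Transporters had a median of -0.032 over 9 probes, from -0.166 for Oatp33Eb to 0.3485 for MRP, a pump that exports glutathione and glucuronide conjugates in animals. The 1 of 2 MRP probes with both values had 0.268 on array 1 and 0.429 on array 2 (limma adjusted p = 0.563). The xenobiotic P450 list had a median of -0.055 over 5 probes, from -0.1435 for Cyp6g1, the P450 linked to DDT resistance, to 0.1005 for Cyp12d1-p. Antioxidant enzymes had a median of -0.042 over 6 probes, from -0.1845 for 1 of the 2 Sod3 probes with both values (of 3 on the array) to 0.66 for the peroxiredoxin gene Prx6b. Prx6b, listed as Prx2540-1, had 0.559 and 0.761 (limma adjusted p = 0.419). With array 2 turned, its mean lay farther from the centre than any of the 49 Gst and Ugt means, of which GstE7 had 0.6335. On array 1 alone GstE7, at 1.206, lay farther out than Prx6b. The comparison was not made for the reading by genotype.

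Markers of 5 larval tissues, muscle among them, were set beside these values. The midgut list had a median of -0.467 over 9 probes for 9 of 10 genes, with 6 on the negative and 2 on the positive side of both arrays, from -0.864 for epsilonTry to 0.339 for Amy-d. The fat body list had a median of -0.0892 over 4 probes for 4 of 7 genes, from -0.3655 for apolpp to 0.0045 for Lsp2. The Malpighian tubule list had only Lkr at 0.155 and Irk1 at 0.126, and its defining gene Uro had no probe under that name. Cuticle markers had a median of 0.569 over 3 probes for 3 of 7 genes, from -0.3935 for Ccp84Ag to 0.6455 for Lcp65Aa. With array 2 turned and the arrays averaged, Gst and Ugt medians lay nearer to 0 than those of all 5 marker lists. On array 1 alone the Ugt median, 0.08, lay farther from 0 than that of the fat body list, -0.057. The marker lists were not read by genotype, and the part of tissue composition in the members' values was not tested.

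**Figure D5:**
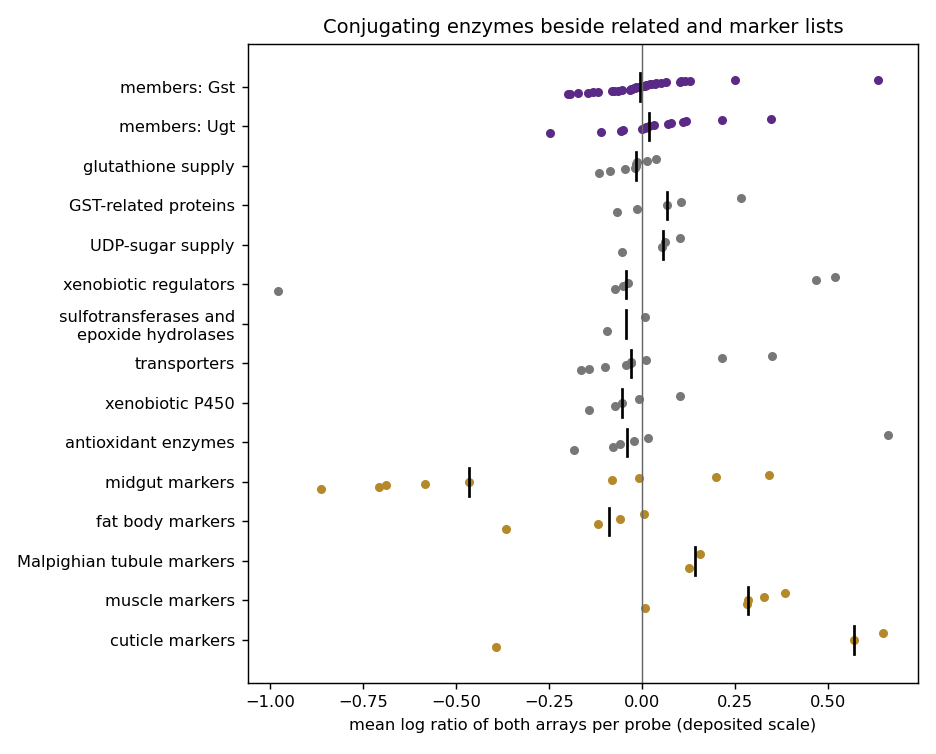
Mean log ratio of both arrays per probe (x axis, deposited scale) for the Gst and Ugt probes (top 2 rows), the 8 related lists and the 5 tissue marker lists; each dot is a probe and each upright bar the median of its row. Gst (-0.0057) and Ugt (0.017) medians sit near 0, the midgut markers at -0.467 and the muscle and cuticle markers at 0.2825 and 0.569.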

How the data were processed

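Log ratios were deposited by the authors as 1 value per probe and array. No source used here gives their scanner, background correction, normalization, log base or numerator. Blank cells (3996 on array 1, 1450 on array 2) and 7 cells holding the code -10000 were treated as missing. From the table, 960 unnamed features repeated at 40 places in each of 24 blocks were left out as likely control spots, a choice made after the data had been seen. Array 2 was turned, and each array was centred on its median.

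Probes were named from the platform annotation, 13147 with 1 symbol, of which 12519 were updated through gene identifiers. limma 3.58.1 in R 4.3.3 (lmFit, eBayes, two-sided, against 0) was fitted to 10912 probes, with Benjamini-Hochberg adjustment over all of them, after a test on simulated data. Members and lists were chosen with earlier results of these data known. Values are given by rule for the extremes of each class, the 8 largest per side, the 5 widest gaps between arrays, genes with several probes and probes on 1 array, and for the extremes of each list; other values were added afterwards. Alternatives were the reading by genotype, no centring, centring within blocks, keeping the unnamed features, keeping probes on 1 array, gene means and each array alone. The number of unused columns was 0.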

Additional observations from a re-analysis of the deposited data

How the results depend on the processing

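limma called 0 probes and 0 members under each of the 6 alternatives with a test, with lowest adjusted p of the members from 0.394 (centred within blocks) to 0.992 (read by genotype). The Gst median, -0.0057, was 0.005 when read by genotype, -0.0097 without centring, -0.0102 centred within blocks and -0.0023 with the unnamed features kept, and from -0.02 to -0.0195 on each array alone. The Ugt median, 0.017, was 0.062 when read by genotype, -0.055 with the probes on 1 array kept, and -0.066 to 0.08 on each array alone, so its side depends on the array. Read by genotype, 18 members in place of 10 were positive on both arrays. They were 7 of 15 Ugt probes (46.7%) and 11 of 34 Gst probes (32.4%), against 23.9% of all probes. Negative on both were 0 Ugt and 9 Gst probes, against 26.4% of all probes. On each array alone, 19 to 28 members were positive and 21 to 30 negative. Past 1.5-fold on both arrays there were 2 members on base 10 and 0 on base 2. Changes of sign were counted only for the 24 Gst and Ugt probes with both values that were named by rule. Member probes whose values were added afterwards were left out of this count. Some of those also change sign when read by genotype, such as GstE6, whose turned mean of -0.034 comes from 0.113 and -0.181. Of the 24, 8 changed sign when read by genotype (GstD10, GstE1, GstO1, 1 GstO2 probe, GstS1, GstZ2, Ugt302K1 and Ugt303B1). Of the same 24, 1 (GstD6) did so when centred within blocks and 0 in the other 4 tested settings. Without array 1, 6 changed sign, and without array 2, 1 did. The cause of these shifts was not tested. No paired analysis was possible because each array is already a ratio of both crosses. Signal over background is not in the table, so the precision of single spots is unknown.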
